A study of Mus musculus with 3 samples.

Results

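The 7 haemoglobin genes described here are the embryonic genes Hba-x, Hbb-y and Hbb-bh1 and the adult-type genes Hba-a1, Hba-a2, Hbb-bt and Hbb-bs. They were chosen by gene symbol from the 27998 rows of the count tables, and all 7 were present in each library. Their transcripts were counted in single nuclei of whole mouse hearts at embryonic day 9.5. The account covers which of these genes the red cell precursors of the heart transcribed, how much haemoglobin RNA was counted in nuclei of other kinds, and how both differed between genotypes.

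Haemoglobin is built from alpha-like and beta-like chains, which are encoded in separate gene clusters. In the mouse embryo the first red cells come from the yolk sac. These primitive erythroid cells circulate with their nuclei still in place, and they contain mostly embryonic chains: zeta from Hba-x, epsilon-y from Hbb-y and beta-h1 from Hbb-bh1. Adult alpha chains from Hba-a1 and Hba-a2 are already made alongside zeta in these cells. Adult beta chains from Hbb-bs and Hbb-bt belong mainly to the definitive red cells made later in the fetal liver. The change from embryonic to adult-type genes is known as haemoglobin switching, and primitive cells also change from mainly Hbb-bh1 to mainly Hbb-y as they mature.

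Hearts of 3 genotypes of Ncx1 were compared: Ncx1+/+ (wild type), Ncx1+/- (heterozygous) and Ncx1-/- (homozygous mutant). Ncx1 is an alias of Slc8a1, the sodium-calcium exchanger of heart muscle, and embryos without it are known for lacking a regular heartbeat and circulation. Each genotype was represented by 1 library of nuclei from 5 pooled hearts. The strain and the nature of the mutant allele are not given in the sources used here. Values for the libraries are given in the order Ncx1+/+, Ncx1+/- and Ncx1-/-.

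The tables held 13805, 12563 and 12525 barcodes with 59898298, 49022310 and 52985283 unique molecular identifiers (UMIs, each marking 1 captured RNA molecule). After filtering, 12465, 11268 and 11232 nuclei were kept. Slc8a1 itself stood at 11823, 6534 and 1026 CPM (UMIs of a gene per 1000000 UMIs counted) over all barcodes, highest in Ncx1+/+ and lowest in Ncx1-/-. Between 40 and 57 barcodes were shared by any pair of libraries, at most 0.455% of a library. With 1 library per genotype there is no test between genotypes and no replicate check. All intervals are at 95% and cover counting error only. They are exact except for ratios of shares, whose intervals are approximate.

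All 7 gene identifiers of the tables matched the GENCODE annotation of mm10. The 3 alpha-like genes lie on the plus strand of chromosome 11: Hba-x (ENSMUSG00000055609) at chr11:32276400-32278116, Hba-a1 (ENSMUSG00000069919) at chr11:32283511-32284465 and Hba-a2 (ENSMUSG00000069917) at chr11:32296489-32297298. The 4 beta-like genes lie on the minus strand of chromosome 7. In the direction of transcription they follow as Hbb-y (ENSMUSG00000052187) at chr7:103851749-103853216, Hbb-bh1 (ENSMUSG00000052217) at chr7:103841637-103843164, Hbb-bs (ENSMUSG00000052305) at chr7:103826534-103828096 and Hbb-bt (ENSMUSG00000073940) at chr7:103812524-103813996. Each gene has 3 exons in its annotated coding transcript, and in both clusters the embryonic genes come first.

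Promoter sequence of RefSeq (build GRCm38.p6) matched 6 of the 7 genes. The sequences just before the start sites of Hbb-y, an embryonic beta-like gene, and of Hba-a2, an adult-type alpha-like gene, are shown. Of the 150 bases before the RefSeq start, only 9 and 3 fell in annotated GENCODE exons for these genes. All 150 did for Hba-x and Hba-a1, 73 for Hbb-bt and 67 for Hbb-bs, so those windows are not shown. The stretch of Hbb-y is chr7:103853217-103853357 on the minus strand, and that of Hba-a2 is chr11:32296342-32296488 on the plus strand. Both are written 5′ to 3′, with capitals for 4 short motifs searched on both strands. These were CACCC for the CACCC element, CCAAT for the CCAAT box, GATAA for sites of GATA factors and ATAAA for a TATA-like element, all known from globin promoters.
Hbb-y: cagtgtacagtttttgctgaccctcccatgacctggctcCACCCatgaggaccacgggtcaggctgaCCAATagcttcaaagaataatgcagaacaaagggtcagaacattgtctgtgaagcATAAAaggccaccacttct
Hba-a2: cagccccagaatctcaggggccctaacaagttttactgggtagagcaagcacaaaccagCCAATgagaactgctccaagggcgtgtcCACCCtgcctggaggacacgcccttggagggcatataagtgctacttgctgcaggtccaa

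Both stretches hold 1 CACCC and 1 CCAAT, in the opposite order. In Hbb-y the CACCC starts 111 bases and the CCAAT 83 bases before the start site. In Hba-a2 the CCAAT starts 91 bases and the CACCC 63 bases before it. Over the 150 bases before the start, CACCC was found in all 6 promoters with sequence, against 37.4% of 32851 mouse promoters. CCAAT was found in 5 of the 6, all but Hba-x, against 24.5%. GATAA was found in Hba-x alone, against 13.3%, and ATAAA in Hba-x, Hbb-y and Hbb-bt, against 24.1%. Of these motifs none overlapped another in Hbb-y or Hba-a2. A match is only a match of letters.

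Some of the genes are hard to tell apart by sequence. The annotated transcripts of Hba-a1 and Hba-a2 differed at 1 of 538 aligned bases, and the windows before their starts were identical over 147 aligned bases. The split of adult alpha RNA between these genes is therefore uncertain, and their sum is the firmer value. Hbb-bt and Hbb-bs transcripts were 92.2% identical. The embryonic beta-like genes Hbb-y and Hbb-bh1 were 72.4% identical.

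The clusters in which red cell precursors were found were made and named without any haemoglobin gene. The doublet score that removed barcodes beforehand used all genes, haemoglobins included. Clustering left out these 7 genes and the 3 other globin genes, and a single cluster was erythroid-like, and all 24 fixed erythroid markers had UMIs there in each library. Its leading genes included Kel, Rhag and Ank1, which encode proteins of the red cell membrane and its skeleton. It held 495, 466 and 94 nuclei, or 3.97% (3.64 to 4.33), 4.14% (3.78 to 4.52) and 0.837% (0.677 to 1.02) of kept nuclei. The ratio of this share between Ncx1-/- and Ncx1+/+ was 0.211 (0.169 to 0.262). It was 0.534 when nuclei with 4 or more of the markers were taken instead, and 0.112 when at least 1000 detected genes were required. The median nucleus of the cluster had 1845, 1760.5 and 1638.5 UMIs, against 3847, 3452 and 3555.5 in the other nuclei. Nuclei were sorted for quality before capture, and a sort can set shares of nuclei. Markers of other blood cells were also counted. Of 16 megakaryocyte markers 7, 9 and 4 were detected there, with Pf4 and Gp1ba at 0 in all libraries, and the list summed to 128, 123 and 74.4 CPM, above its level of 66.0, 49.4 and 37.0 CPM in the other nuclei. Of 11 blood progenitor markers 8, 7 and 4 were detected, with Hlf, Cd48 and Mpo at 0 in all, at 183, 187 and 208 CPM against 626, 538 and 371 CPM outside. Of 14 macrophage markers 2, 3 and 1 were detected, with Csf1r and Ptprc at 0 in all, at 14.2, 10.3 and 4.96 CPM against 28.1, 27.9 and 26.1 CPM. The part of these cells in the haemoglobin values was not tested.

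Every erythroid-like nucleus carried haemoglobin RNA, and embryonic genes made up most of it. Summed over the 7 genes, haemoglobins stood at 19867, 19013 and 15214 CPM there. The poorest nucleus of each library held 5, 6 and 6 haemoglobin UMIs, the median nucleus 36, 31.5 and 30, and the richest 359, 464 and 111. No erythroid-like nucleus of any library was without them.

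**Figure D1:**
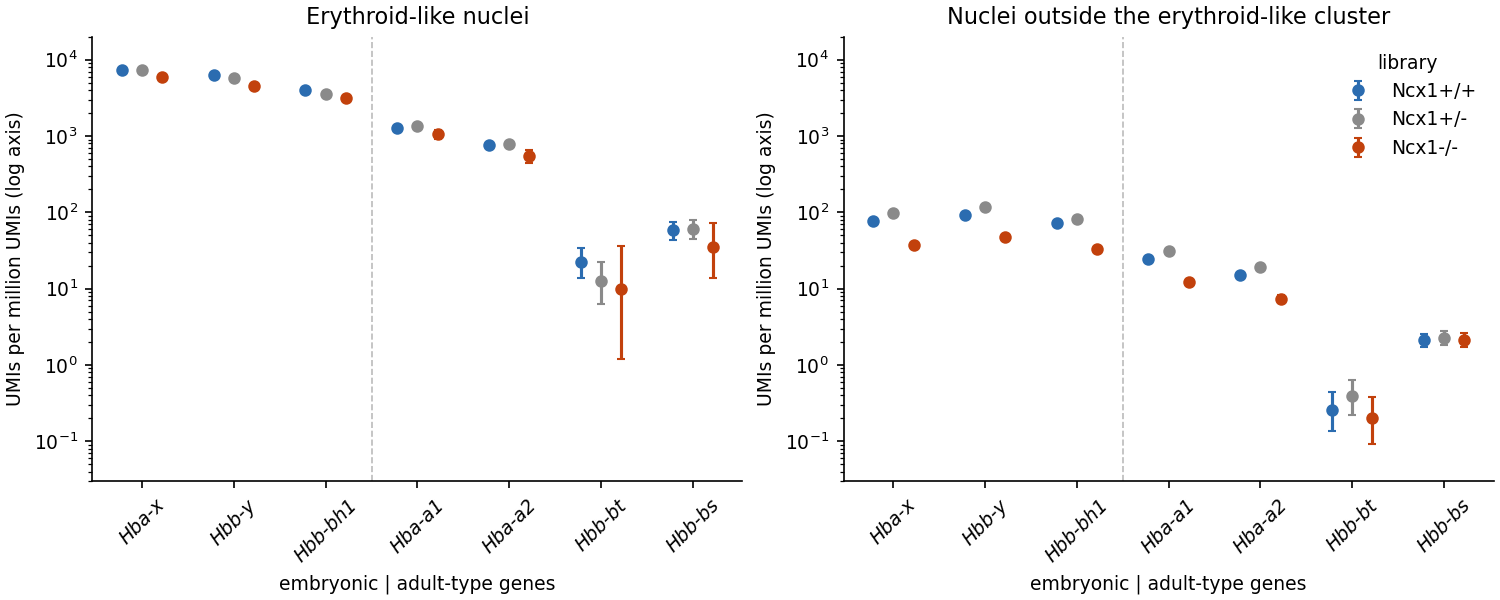
Level of each haemoglobin gene in CPM (log axis) in erythroid-like nuclei (left) and in all other nuclei (right), with 95% exact Poisson intervals, for the 3 libraries. The embryonic genes lie at 3193 or above in erythroid-like nuclei of each library, and the adult beta-like genes at 60.4 or below. Outside, Ncx1-/- is lowest for each gene but Hbb-bs, and the intervals of Hbb-bt overlap.

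Hba-x, the gene of the embryonic zeta chain, had the highest level of the 7 at 7437 (7268 to 7610), 7439 (7260 to 7622) and 5860 CPM (5530 to 6203). A UMI of Hba-x was present in 99.8%, 99.8% and 98.9% of erythroid-like nuclei. The Ncx1+/+ and Ncx1+/- libraries were level, and the interval of Ncx1-/- lay below both.

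Hbb-y, the gene of the epsilon-y chain, followed at 6324, 5772 and 4516 CPM. Hbb-bh1, the gene of the beta-h1 chain, stood at 3988, 3598 and 3193 CPM. For both genes Ncx1+/+ was highest and Ncx1-/- lowest, and none of the 3 intervals of either gene overlapped. A UMI of Hbb-y was present in 99.0%, 99.6% and 98.9% of these nuclei, and of Hbb-bh1 in 98.2%, 98.5% and 98.9%.

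Adult alpha RNA was present next to zeta RNA in most nuclei. Hba-a1 stood at 1277, 1356 and 1061 CPM, and 84.8%, 84.1% and 85.1% of nuclei held a UMI of it. Hba-a2 stood at 760, 775 and 540 CPM, and 68.9%, 67.4% and 64.9% of nuclei held one. The Ncx1-/- interval of Hba-a1 (923 to 1213) reached past the lower bound of Ncx1+/+ (1207), whereas that of Hba-a2 (444 to 652) lay below both other libraries.

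Adult beta RNA was scarce. Hbb-bs, the beta-s gene, had 57, 53 and 7 UMIs, or 57.9, 60.4 and 34.7 CPM, in 7.27%, 9.23% and 6.38% of nuclei. Hbb-bt, the beta-t gene, had 22, 11 and 2 UMIs, or 22.3, 12.5 and 9.91 CPM. The intervals of both genes overlapped among all 3 libraries, so no difference between genotypes was detectable at these counts.

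The order of levels held per length of transcript too. Per kilobase of the annotated transcript in Ncx1+/+, levels were 12845 CPM for Hba-x, 9991 for Hbb-y, 6506 for Hbb-bh1, 1827 for Hba-a1, 1372 for Hba-a2, 92.1 for Hbb-bs and 31.8 for Hbb-bt. The same order of all 7 genes was found in the other libraries. The order of Hba-a1 and Hba-a2 is uncertain for the reason of sequence given above, and in Ncx1-/- the counting intervals of Hbb-bs and Hbb-bt overlapped. The remaining globin genes of these clusters were also low: Hbb-bh2 had 78, 71 and 7 UMIs in erythroid-like nuclei, Hbq1b 12, 12 and 6, and Hbq1a 0, 1 and 0.

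The switching state was close to equal in the 3 libraries. Hba-x made up 78.5% (77.7 to 79.3), 77.7% (76.8 to 78.6) and 78.5% (76.4 to 80.6) of alpha-like UMIs, so the adult alpha genes had 21.5%, 22.3% and 21.5%. Hbb-y and Hbb-bh1 together made up 99.2%, 99.2% and 99.4% of beta-like UMIs. The alpha-like side thus held a far larger adult-type share than the beta-like side in each library. Over all 7 genes the adult-type share was 10.7% (10.2 to 11.1), 11.6% (11.1 to 12.1) and 10.8% (9.74 to 12.0). The ratio of that share in Ncx1-/- to that in Ncx1+/+ was 1.01 (0.910 to 1.13).

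Within the embryonic beta-like pair, Hbb-bh1 had 38.7% (37.7 to 39.6), 38.4% (37.4 to 39.5) and 41.4% (39.0 to 43.9) of UMIs. The share in Ncx1-/- was 1.07 times that in Ncx1+/+ (1.00 to 1.14), and its interval overlapped that of Ncx1+/+. The interval of this ratio included 1 when barcodes with at least 200 detected genes were kept (0.987 to 1.12) and when no doublets were removed (0.992 to 1.14). It also did among nuclei with 4 or more erythroid markers, where the ratio was 1.02 (0.961 to 1.08), and among nuclei with at most 1% of UMIs from cardiomyocyte markers (0.989 to 1.16). Alpha-like and beta-like RNA were nearly balanced, with 47.7%, 50.3% and 49.0% of UMIs from alpha-like genes. Hba-a1 had 62.7%, 63.6% and 66.3% of the adult alpha UMIs.

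**Figure D2:**
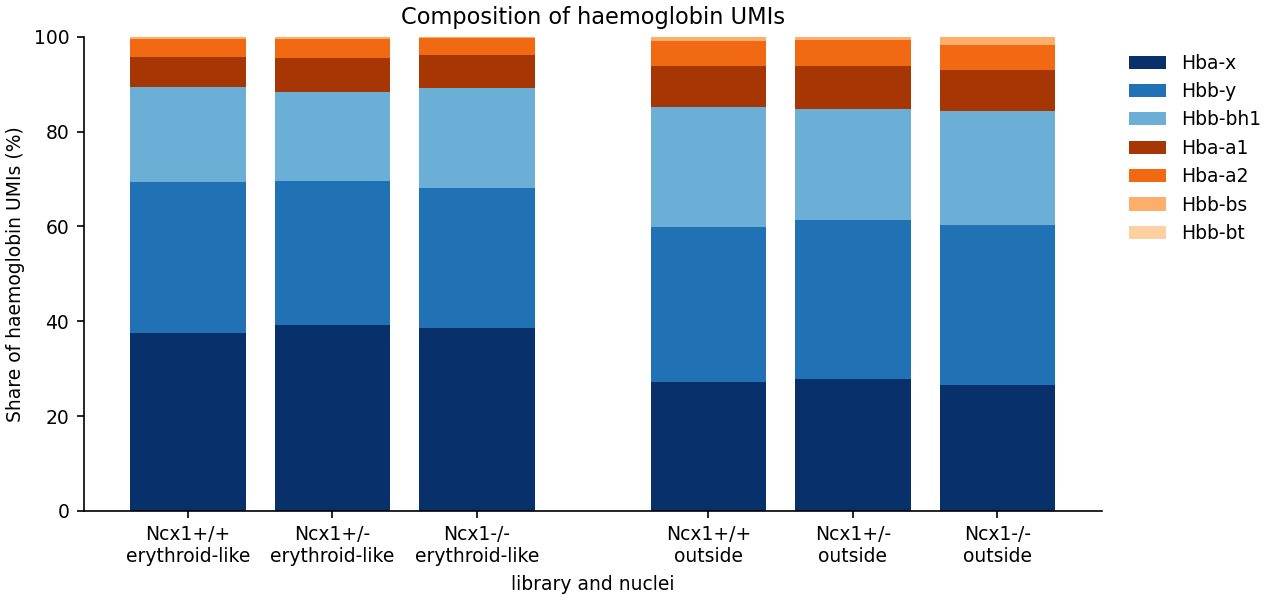
Share of each gene in all haemoglobin UMIs (%), stacked to 100, for erythroid-like nuclei (left 3 bars) and all other nuclei (right 3 bars) of each library. Blue colours are embryonic and orange colours adult-type genes. The bars of the 3 libraries are alike within each kind of nuclei, and Hba-x takes a smaller part outside (26.6 to 27.9%) than in erythroid-like nuclei (37.4 to 39.1%).

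Single erythroid-like nuclei spread somewhat more than counting alone gives. Among nuclei with at least 10 UMIs of the pair, the share of Hbb-bh1 ran from 20% at the 10th percentile to 54.7% at the 90th in Ncx1+/+, with a median of 38.1%. Its variance over nuclei was 1.58, 1.37 and 1.17 times what counting alone gives. For the adult-type share the same measure was 1.18, 1.21 and 1.09, with medians of 10.2%, 11% and 10.6%. The adult-type share thus lay nearer to the counting spread than the share of Hbb-bh1 in each library. Across the 1055 nuclei, log levels of the 5 abundant genes correlated weakly with each other, at Pearson r from 0.201 (Hbb-bh1 and Hba-a2) to 0.457 (Hba-x and Hbb-y). These points share libraries and depth.

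The summed level in erythroid-like nuclei of Ncx1-/- was 0.766 times that of Ncx1+/+ (0.737 to 0.796) and 0.800 times that of Ncx1+/- (0.770 to 0.832). All 7 genes were lower than in Ncx1+/+. Single ratios ran from 0.711 for Hba-a2 to 0.831 for Hba-a1 among the 5 abundant genes. For Hbb-bs and Hbb-bt the intervals of the ratio included 1. None of the 6 genes with at least 50 UMIs was lower past the fold, that is at least 1.5 times lower than in both other libraries with both intervals excluding 1. By that rule 4.28% of 6524 measured genes were lower and 4.83% higher in erythroid-like nuclei of Ncx1-/-. The Ncx1+/- level was 0.957 times that of Ncx1+/+ (0.937 to 0.977). Erythroid-like nuclei were also taken as those with 4 or more of the fixed markers, which numbered 913, 793 and 439. Their haemoglobin level was 5630, 5812 and 1462 CPM, far below that of the cluster in each library. In them the ratio of Ncx1-/- to Ncx1+/+ was 0.260 (0.251 to 0.269) and 6 genes were lower past the fold. By that rule 806 genes in all were lower and 478 higher in these nuclei, against 279 and 315 in the cluster. The share of measured genes was not counted there. How many of these nuclei are erythroid was not tested. When barcodes with at least 200 detected genes were kept, Hba-a2 was lower past the fold, with a ratio of 0.644 (0.523 to 0.786) to Ncx1+/+. With that setting 345 genes in all were lower past the fold and 376 higher, and their share was not counted either.

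Cardiomyocyte RNA in erythroid-like nuclei also differed between the libraries. All 14 cardiomyocyte markers were detected in erythroid-like nuclei of each library, and their sum was 5883, 7771 and 12289 CPM there, against 17920, 19895 and 21745 CPM in the other nuclei. The 24 erythroid markers summed to 16506, 16101 and 12899 CPM. Per 100 UMIs of those markers, haemoglobins had 120.4, 118.1 and 117.9 UMIs, which left a ratio of 0.980 between Ncx1-/- and Ncx1+/+ (0.943 to 1.02). On that scale, which moves all genes by the same factor, the ratios of Hba-x, Hbb-bh1 and Hba-a1 were 1.01 (0.947 to 1.07), 1.02 (0.941 to 1.11) and 1.06 (0.915 to 1.23).

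The difference lay in the deepest nuclei. In erythroid-like nuclei with under 1553 UMIs the summed level was 20955 (20300 to 21626), 19591 (18981 to 20215) and 20935 CPM (19684 to 22245). Between 1553 and 2099 UMIs it was 21299, 18604 and 20800 CPM, and in both groups the interval of Ncx1-/- held the value of Ncx1+/+. Above 2099 UMIs it was 18595, 19018 and 10215 CPM (9619 to 10839), and these deepest nuclei of Ncx1-/- numbered 26. Their median depth was 3421 UMIs, against 2511 and 2471 in this group of Ncx1+/+ and Ncx1+/-. In that group cardiomyocyte markers stood at 5795, 8427 and 14744 CPM and erythroid markers at 16443, 15397 and 9889 CPM. Cardiomyocyte markers were also highest in Ncx1-/- in both shallower groups, where its haemoglobin level was not below that of Ncx1+/+ beyond counting error. They stood at 6393, 7443 and 8571 CPM under 1553 UMIs, and at 5717, 7093 and 10556 CPM between 1553 and 2099 UMIs. Among the 434, 364 and 56 erythroid-like nuclei with at most 1% of UMIs from cardiomyocyte markers, haemoglobins stood at 19988, 19008 and 18389 CPM, a ratio of 0.920 (0.876 to 0.966) between Ncx1-/- and Ncx1+/+. With no doublet filter the ratio was 0.987 (0.947 to 1.03). Among the nuclei of at most 1%, Hbb-bh1 had 38.9%, 38.4% and 41.7% of its pair. The adult-type share there was 10.6%, 11.7% and 9.27%, with a ratio of 0.874 (0.752 to 1.02). The part of cardiomyocyte RNA in the lower haemoglobin level was not tested further.

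**Figure D3:**
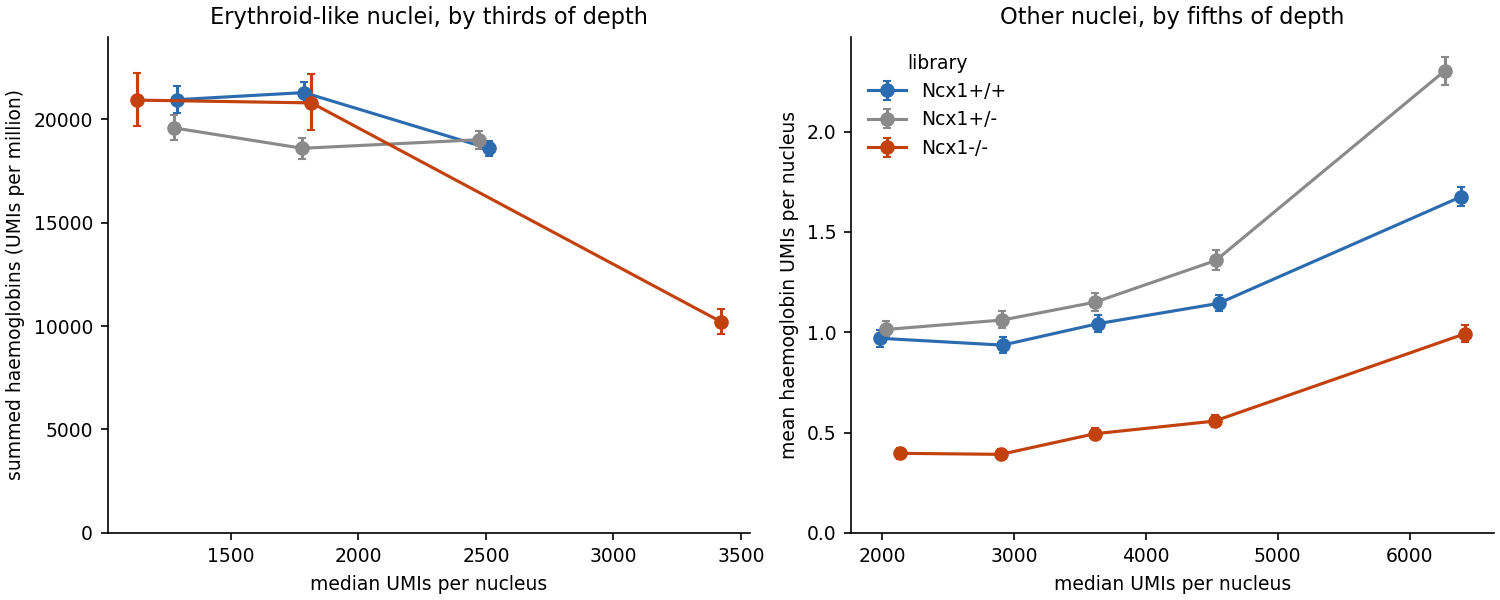
Left: summed haemoglobin level (CPM) in erythroid-like nuclei in 3 groups by UMIs per nucleus, against the median UMIs of each group. Right: mean haemoglobin UMIs per nucleus in all other nuclei in 5 groups by depth, with 95% exact Poisson intervals. On the left Ncx1-/- lies below both other libraries in its deepest group alone, at 10215, and on the right it lies below the other libraries in all 5 groups.

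Haemoglobin RNA was also counted in nuclei outside the erythroid-like cluster. The sum of the 7 genes was 283 (278 to 288), 352 (346 to 357) and 139 CPM (136 to 143) in 11970, 10802 and 11138 such nuclei. At least 1 haemoglobin UMI was present in 62.6%, 65.2% and 35.7% of them. After thinning each nucleus to 1000 UMIs, which left out 275, 256 and 163 shallower nuclei, the shares were 24.6% (23.8 to 25.4), 28.4% (27.5 to 29.2) and 12.4% (11.8 to 13.0). All erythroid-like nuclei deep enough kept a haemoglobin UMI after the same thinning. Whether nuclei of any class outside transcribe these genes was not tested. Their share serves as a background for nuclei with haemoglobin only on the assumption that none do.

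Of all haemoglobin UMIs in kept nuclei, 58.0%, 53.6% and 33.0% sat in erythroid-like nuclei and the rest outside. In Ncx1-/- the outside total per erythroid-like nucleus was 66.1 UMIs, against 28.6 and 31.0. Ncx1-/- was also highest at Leiden resolution 2.0 (66.1) and with clusters made with haemoglobin genes (64.6). It was highest too with at least 200 (62.0) or 1000 detected genes (175) and without the doublet filter (105). Only with nuclei of 4 or more markers was it lowest, with outside totals per such nucleus of 14.6, 17.6 and 12.0 UMIs. Those nuclei held haemoglobins at 5630, 5812 and 1462 CPM.

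Outside, 5 of the 6 genes with at least 50 UMIs were lower past the fold in Ncx1-/- and none higher, where 3.79% of 16123 measured genes were lower and 5.53% higher. Hbb-y stood at 92.7, 118 and 47.0 CPM, Hba-x at 77.1, 98.0 and 37.1 CPM and Hbb-bh1 at 71.6, 82.4 and 33.5 CPM. Hba-a1 stood at 24.3, 31.5 and 12.3 CPM and Hba-a2 at 15.1, 19.1 and 7.31 CPM. The ratio of Ncx1-/- to Ncx1+/+ ran from 0.468 for Hbb-bh1 to 0.507 for Hbb-y, and the sum had 0.493 (0.478 to 0.508). Against Ncx1+/- the sum had 0.397 (0.385 to 0.409). These 5 genes were therefore lower by nearly equal factors, whether embryonic or adult-type. The same 5 genes were lower past the fold under each of the 12 other settings tried.

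Ncx1+/- was above Ncx1+/+ outside, with a ratio of 1.24 (1.21 to 1.27) for the sum. Single ratios of the 5 genes were 1.15 for Hbb-bh1, 1.26 for Hba-a2, 1.27 for Hba-x and Hbb-y and 1.29 for Hba-a1. In erythroid-like nuclei the same 2 libraries differed by 0.957, as given above.

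Hbb-bs stood apart from the other members outside. It had 105, 92 and 95 UMIs, or 2.10 (1.72 to 2.54), 2.24 (1.81 to 2.75) and 2.13 CPM (1.72 to 2.61), with a ratio of 1.02 (0.761 to 1.35) between Ncx1-/- and Ncx1+/+. That interval lies above the intervals of the 5 abundant genes, whose highest upper bound is 0.559 (Hba-a1). Its share of haemoglobin UMIs was 0.741% (0.607 to 0.897), 0.637% (0.514 to 0.781) and 1.53% (1.24 to 1.87) outside, against 0.291% (0.221 to 0.377), 0.318% (0.238 to 0.416) and 0.228% (0.0918 to 0.469) in erythroid-like nuclei. So Hbb-bs was over-represented outside in all 3 libraries, most of all in Ncx1-/-.

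Nuclei outside that held an Hbb-bs UMI carried other haemoglobin UMIs in 73.0% (63.2 to 81.4), 70.8% (60.2 to 79.9) and 43.0% (32.8 to 53.7), against 62.3%, 64.9% and 35.2% of nuclei without one. These intervals reach the share without Hbb-bs in Ncx1+/- and Ncx1-/-, but not in Ncx1+/+. The other haemoglobins summed to 677.3, 884 and 172.3 CPM in nuclei with an Hbb-bs UMI, and to 277.5, 344.1 and 137 CPM without. No intervals were computed for these levels. In cardiomyocyte-like nuclei Hbb-bs had 2.17, 2.46 and 2.22 CPM, and in endocardial and endothelial-like nuclei 1.92, 1.81 and 1.92 CPM. The intervals of these 6 values overlapped. Hbb-bt had 13, 16 and 9 UMIs outside, and no difference was detectable at this depth.

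The RNA outside also differed in composition from that of erythroid-like nuclei. Hba-x made up 66.1% (64.9 to 67.3), 66.0% (64.8 to 67.1) and 65.4% (63.5 to 67.3) of alpha-like UMIs outside, against 78.5%, 77.7% and 78.5% within. The intervals of the 2 kinds of nuclei did not overlap in any library. The adult-type share of all 7 genes was 14.8%, 15.1% and 15.7% outside, higher than within in all 3 libraries. Hbb-bh1 had 43.6% (42.5 to 44.7), 41.2% (40.1 to 42.2) and 41.6% (40.0 to 43.2) of its pair outside, above the erythroid-like share in Ncx1+/+ and Ncx1+/-, whereas both shares overlapped in Ncx1-/-. Alpha-like genes had 41.2%, 42.3% and 40.6% of haemoglobin UMIs outside, below the share within. Hba-a1 had 61.7%, 62.2% and 62.7% of adult alpha UMIs, close to its share within.

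The composition was also read in the 2 largest named classes of other nuclei. In Ncx1+/+, Hba-x made up 66.5% (64.8 to 68.1) of alpha-like UMIs in cardiomyocyte-like and 65.8% (63.5 to 68.2) in endocardial and endothelial-like nuclei. The adult-type share there was 14.8% and 14.9%. In Ncx1+/- the Hba-x shares were 67.2% (65.6 to 68.7) and 62.6% (60.2 to 65.0), which did not overlap, and in Ncx1-/- 64.3% (62.0 to 66.5) and 69.7% (65.8 to 73.3), which did. The point values of the classes stood in opposite order in these libraries, and each share lay below that of erythroid-like nuclei.

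Levels outside were set against those in erythroid-like nuclei gene by gene. In Ncx1+/+ the level outside was 1.04% of that within for Hba-x, 1.47% for Hbb-y, 1.79% for Hbb-bh1, 1.91% for Hba-a1, 1.99% for Hba-a2, 1.16% for Hbb-bt and 3.63% for Hbb-bs. The intervals of the 3 embryonic genes did not overlap, with Hba-x lowest and Hbb-bh1 highest. In Ncx1+/- these 3 stood at 1.32%, 2.04% and 2.29%, and in Ncx1-/- at 0.632%, 1.04% and 1.05%. Other erythroid transcripts spread more widely. Kel and Rhag, blood group and Rh-complex genes of the red cell membrane, had 0.0896% and 0.103% in Ncx1+/+. Tmod1, an actin filament capping gene also used in heart muscle, had 52.6%. Of the 24 markers, 14, 15 and 13 lay below Hba-x in the 3 libraries.

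**Figure D4:**
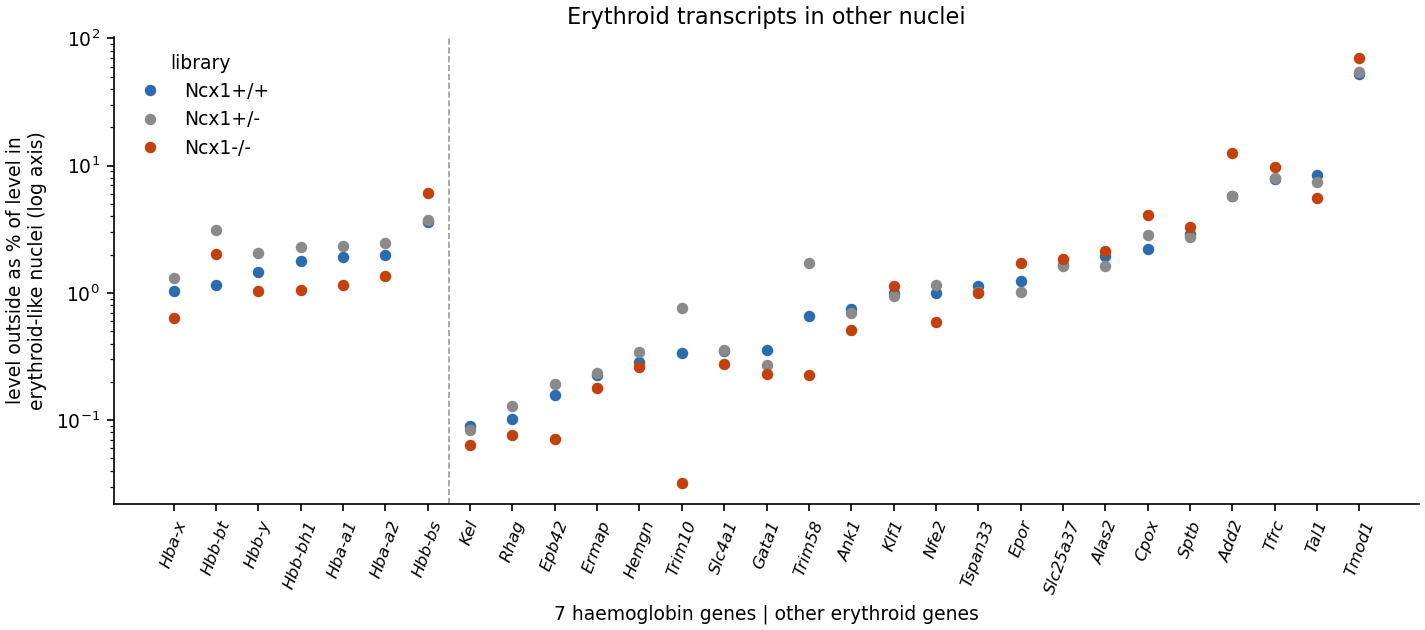
Level outside erythroid-like nuclei as a percentage of the level within (log axis) for the 7 haemoglobin genes (left of the dashed line) and other erythroid genes, for each library. Haemoglobins fall between 0.632% and 6.14%, and in Ncx1+/+ Kel and Rhag lie lowest and Tmod1 highest.

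The mean number of haemoglobin UMIs per nucleus outside grew less than depth did. From the shallowest to the deepest group of Ncx1+/+ nuclei the median depth went from 1988 to 6388 UMIs, and the mean went from 0.970 (0.928 to 1.01) to 1.67 haemoglobin UMIs (1.63 to 1.72). In Ncx1+/- the mean went from 1.01 to 2.30 and in Ncx1-/- from 0.396 to 0.992. As CPM, the level in Ncx1+/+ was therefore 528 CPM in the shallowest group and 241 CPM in the deepest. Ncx1-/- was lowest in all 5 groups of depth, so the difference between genotypes was found at every depth.

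By class, the summed level was 287, 350 and 128 CPM in 6838, 6713 and 8853 cardiomyocyte-like nuclei and 294, 389 and 202 CPM in 2499, 2122 and 1647 endocardial and endothelial-like nuclei. The ratio of Ncx1-/- to Ncx1+/+ was 0.448 (0.431 to 0.464) and 0.688 (0.647 to 0.732). The clusters that made up each class differed in size between the libraries. Cardiomyocyte-like cluster 1 held 223, 421 and 1945 nuclei and cluster 9 held 1415, 961 and 60, while endocardial and endothelial-like cluster 6 held 1469, 1062 and 316 and cluster 7 held 1030, 1060 and 1331. In cardiomyocyte-like nuclei the 5 abundant genes were lower past the fold and none higher, against 2.77% lower and 4.69% higher of 15173 genes, with ratios from 0.413 for Hba-x to 0.472 for Hbb-y. Among endocardial and endothelial-like nuclei 3 genes were lower past the fold, Hbb-bh1, Hba-a1 and Hba-a2, and none higher, against 4.09% lower and 7.89% higher of 12544 genes.

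A few nuclei weighed on the endocardial value. In Ncx1-/- 11 of 1647 endocardial and endothelial-like nuclei held 10 or more haemoglobin UMIs, up to 227, and together 525 of the 1369 haemoglobin UMIs of the class. Without all nuclei of 10 or more, the class had 237, 321 and 126 CPM and a ratio of 0.530 (0.491 to 0.573). All 5 abundant genes were then lower past the fold in it, Hba-x (ratio 0.585) and Hbb-y (0.514) included, against 4.13% of 12503 genes. The cut took 20.85%, 19.12% and 38.35% of the haemoglobin UMIs of the class, most in Ncx1-/-. It was made on the same counts that were then compared, so the added calls are not independent of it. Cardiomyocyte-like nuclei without those of 10 or more had 273, 327 and 119.5 CPM and a ratio of 0.437 (0.421 to 0.454). The intervals of the 2 ratios still did not overlap.

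**Figure D5:**
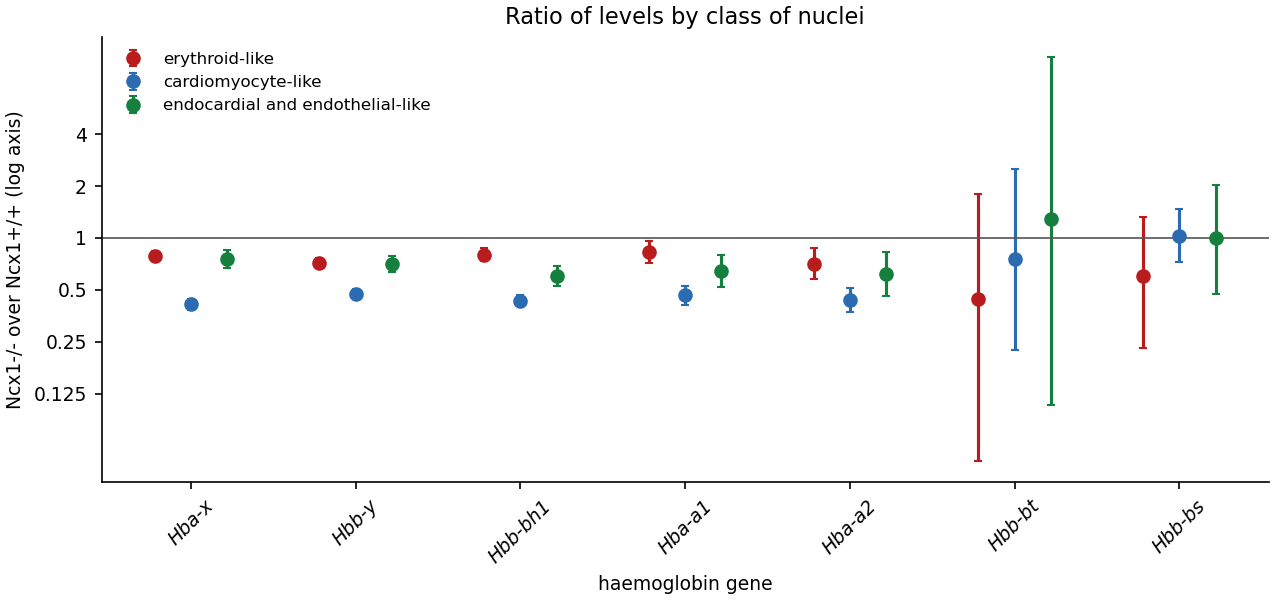
Ratio of each gene's level in Ncx1-/- to that in Ncx1+/+ (log axis), with 95% exact intervals, in erythroid-like, cardiomyocyte-like and endocardial and endothelial-like nuclei. For the 5 abundant genes the cardiomyocyte-like ratios (0.413 to 0.472) lie lowest, and Hbb-bs lies at 1.03 and 1.00 in the 2 classes outside.

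Over clusters, the summed level outside ran from 105 to 1496 CPM among the 45 groups of 1 cluster and 1 library with at least 50 nuclei. The highest value belonged to a cardiomyocyte-like cluster of 303, 316 and 161 nuclei, with 1131, 1496 and 471 CPM. Its nuclei had a median of 1382 UMIs and were led by mitochondrial and heat shock genes and by Acta1, the actin of skeletal muscle. In all 16 clusters outside, Ncx1-/- was below Ncx1+/+ with an interval of the ratio below 1. The ratios ran from 0.276, in a cluster with 10 nuclei in Ncx1+/+, to 0.784, and the highest 2 (0.623 and 0.784) belonged to the endocardial and endothelial-like clusters.

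Other erythroid genes were read in the erythroid-like nuclei from 6 lists, where the median measured gene had a log2 ratio of -0.14 between Ncx1-/- and Ncx1+/+. The median was -0.39 for the erythroid markers and -0.41 for the 6 measured haemoglobins, and cardiomyocyte markers were higher in these nuclei of Ncx1-/-, as given above. The counts of the lists stand against the 4.28% of all genes that were lower and the 4.83% that were higher. Of haem synthesis genes 1 of 13 measured was lower past the fold and none higher, with a list median of -0.39. It was Tmem14c, a mitochondrial transporter of haem precursors, at 305, 264 and 159 CPM. Of iron uptake and storage genes 1 of 12 was lower, the ferrireductase gene Steap3 at 156, 177 and 89.2 CPM, with a list median of -0.38.

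Genes of the red cell membrane and skeleton had 3 of 17 lower and none higher, with a list median of -0.27. These were Add2 (148, 172 and 64.4 CPM) and Dmtn (140, 128 and 69.4 CPM), which encode adducin and dematin of the membrane skeleton, and Rhag at 778, 805 and 466 CPM. Erythropoietin signalling had 2 of 6 lower, the transcription factor gene Stat5b at 230, 219 and 129 CPM and the kinase gene Pim1 at 930, 861 and 535 CPM, with a list median of -0.26. Of haemoglobin protection and red cell metabolism genes 1 of 11 was lower, with a list median of -0.25. It was Bpgm, whose enzyme makes the bisphosphoglycerate that lowers oxygen affinity of haemoglobin, at 406, 348 and 134 CPM, a ratio of 0.330 (0.215 to 0.487).

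Of 24 measured regulators of globin and erythroid transcription 3 were lower and 2 higher past the fold, with a list median of -0.08. The lower genes were Nr2c2, which encodes the nuclear receptor TR4 (200, 195 and 114 CPM), Mbd2, a reader of methylated DNA (171, 169 and 99.1 CPM), and Cbfa2t3, the corepressor gene ETO2 (166, 135 and 79.3 CPM). The higher genes were Sox6, known as a repressor of Hbb-y, at 41.6, 45.6 and 178 CPM, and Lmo2, a partner of Tal1, at 132, 105 and 203 CPM. Lmo2 was named after its values were seen. Sox6 stood at 832, 730 and 488 CPM in nuclei outside, above its level in erythroid-like nuclei of each library. Bcl11a, Gata2, Myb and Lyl1 had too few UMIs to be measured.

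The lists were also read in the erythroid-like nuclei with at most 1% of UMIs from cardiomyocyte markers, where 2.13% of 5769 genes were lower and 1.85% higher. Of the genes named from the 6 lists, Stat5b and Bpgm were still lower past the fold there and Lmo2 still higher, and none of the others was past the fold. None of the measured genes of haem synthesis, iron or membrane and skeleton was called there. The list medians were -0.07 for haem synthesis, -0.21 for iron, -0.08 for membrane and skeleton, -0.14 for the regulators, -0.24 for erythropoietin signalling and -0.36 for haemoglobin protection and red cell metabolism, against -0.10 over all genes. Ube2o, a ubiquitin ligase gene of the last list, was lower past the fold in these nuclei but not in all erythroid-like nuclei, and it was named after its values were seen.

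The genes most like the summed haemoglobins over clusters and libraries were other erythroid genes. Over 48 groups of nuclei and 14921 genes, Pearson r of log2(CPM + 1) was highest for Car2 (0.945), a carbonic anhydrase gene, and Tmem14c (0.925). Among the 10 highest were also Nfe2 (0.917), Epb42, a membrane skeleton gene (0.913), Gata1 (0.912), Gfi1b (0.911), Csf2rb (0.910) and Trim10 (0.908). Nfe2, Gata1 and Gfi1b encode transcription factors of the erythroid lineage. These groups share libraries and depth, and only 3 of the 48 are erythroid-like.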

How the data were processed

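The deposited files hold raw UMI counts per gene and nucleus for 1 library per genotype. Per the submitters' processing notes these came from Cell Ranger 6.1.0 with mm10, while the file headers name version 9.0.0. No source used here says if intronic reads entered the counts. The members and gene lists were chosen with earlier results of these data known.

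Filters kept barcodes of 500 or more detected genes with mitochondrial UMIs at or under 5%. The 8% with the highest Scrublet doublet score in each library were removed, a score computed with the globin genes included. Nuclei were clustered with Scanpy 1.11.5 (2000 variable genes, 30 principal components, 15 neighbours, Leiden resolution 1.0) without globin genes, and clusters were named from fixed markers. Counts were summed per class and scaled to CPM. Intervals are exact Poisson, conditional Poisson or Clopper-Pearson (SciPy 1.17.1). For a count of 0 a separate floor of 3 counts was set, which is not the upper bound of these intervals. Ratios of shares have approximate Katz intervals on the log scale. PCR copies were collapsed by UMI. Genes past the fold needed at least 50 UMIs and a ratio of 1.5. No p-values were computed.

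From each list, genes past the fold were named, at most 4, in order of the smaller of both ratios, plus the 10 genes most like the summed haemoglobins, of which some are not reported here. Alternatives included edgeR 4.0.16 TMM factors and DESeq2 1.42.0 size factors. Steps across genes were tested on simulated data. Promoters were read from RefSeq, and Hbb-bh1 is named only.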

Additional observations from a re-analysis of the deposited data

Results flagged for a closer look

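Haemoglobin RNA was also present in barcodes left out of the main comparisons. These were 1340, 1295 and 1293 barcodes, of which 1097, 1037 and 1093 were removed by the doublet score, and some entered the alternatives with no doublet filter or a lower minimum of genes. They held haemoglobins at 867 (848 to 886), 933 (911 to 956) and 247 CPM (236 to 258) in Ncx1+/+, Ncx1+/- and Ncx1-/-. Ncx1+/- stood above the wild-type library, which served as the control. Its value was singled out because it came from barcodes left out of the main comparisons. All 3 values lay between those of erythroid-like and of other nuclei of the same library. The order of the libraries was that of the nuclei outside the erythroid-like cluster.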

How the results depend on the processing

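No paired analysis was possible because each genotype had 1 library. The erythroid-like summed ratio of Ncx1-/- to Ncx1+/+ (0.766) was 0.825 with TMM factors, 0.846 with size factors, 0.260 with nuclei of 4 or more markers, 0.707 and 0.881 with at least 200 and 1000 detected genes, and 0.987 without the doublet filter. It was 0.920 in nuclei of at most 1% cardiomyocyte UMIs and 0.980 per erythroid marker UMI, both chosen after seeing the data. For Hba-x, Hbb-bh1 and Hba-a1 the ratio was 1.01, 1.02 and 1.06 per marker UMI and 1.01, 1.03 and 1.03 without the doublet filter, each with an interval that included 1. The causes were not tested. Outside, the summed ratio (0.493) was 0.445 with the 4-marker nuclei removed, 0.459 without nuclei rich in haemoglobin or erythroid markers, 0.571 with at least 1000 genes and 0.451 without the doublet filter. The outside ratio of Ncx1+/- to Ncx1+/+ (1.24) was 1.28 with the 4-marker nuclei removed and 1.19 without the doublet filter. The adult-type share ratio (1.01) was 0.874 in nuclei of at most 1%. The 594 genes past the fold became 898 at 1 UMI, 1284 with 4 markers, 230 at most 1%, 206 with at least 1000 genes and 266 without the doublet filter. Of these calls 53.0% were higher, against 69.4% with TMM factors, 75.8% with size factors, 68.5% at 1 UMI, 42.6% at 100 UMIs, 42.5% without the doublet filter and 37.2% with 4 markers. Counts of 94 nuclei limit the Ncx1-/- values for Hbb-bs and Hbb-bt.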

Other observations

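The beta-like gene Hbb-bh2 was counted mostly in erythroid-like nuclei, with 78, 71 and 7 UMIs there and 5, 4 and 1 outside. Its level within, 79.2, 81.0 and 34.7 CPM, was close to that of Hbb-bs (57.9, 60.4 and 34.7 CPM), which had 105, 92 and 95 UMIs outside. The theta-like gene Hbq1b had 12, 12 and 6 UMIs within and 6, 7 and 3 outside.

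Outside erythroid-like nuclei, 21 of the 24 erythroid markers were lower in Ncx1-/- than in Ncx1+/+, 15 of them with an interval of the ratio below 1, and the other 3 were higher with an interval above 1. The median ratio of the 24 was 0.653. The share of all genes outside with such intervals was not counted, so these counts have no background to be read against. Rhag stood at 0.799, 1.05 and 0.359 CPM there and Kel at 0.999, 0.974 and 0.538 CPM. The sum of the 24 (471, 462 and 480 CPM) did not show this. Its largest part was Tmod1, a gene also used in heart muscle, at 193, 195 and 226 CPM. Next in Ncx1+/+ came Tfrc (83.7, 81.6 and 80.4 CPM) and Slc25a37 (70.3, 66.8 and 62.6 CPM). Sptb (30.1, 27.6 and 28.4 CPM) and Cpox (23.4, 25.7 and 32.1 CPM) followed.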
